A study of Homo sapiens with 4 samples.

Results

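The nuclear-encoded respiratory chain genes are the genes of the cell nucleus that code for subunits of complexes I to V of the mitochondrial inner membrane. Members were taken by symbol from the protein-coding genes of the deposited count table: the NDUF subunits (assembly factors left out), SDHA to SDHD, the UQCR genes, COX4 to COX8, and the ATP5F1, ATP5M and ATP5P genes. The rule used no measured value and found 88 of the 60708 genes listed. It gave 36 genes of complex I, 4 of complex II, 9 of complex III, 19 of complex IV, 18 of complex V and 2 readthrough genes that join a member to its neighbor. NDUFA4 and NDUFA4L2 carry a complex I name but are placed here with complex IV, since the NDUFA4 protein is a known subunit of cytochrome c oxidase.

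Complexes I, III and IV pass electrons from NADH to oxygen and pump protons across the inner membrane, complex II feeds in electrons from succinate, and complex V is the ATP synthase driven by the proton gradient. Each complex except complex II combines subunits made from nuclear genes with subunits made from mitochondrial DNA. The nuclear genes are transcribed by RNA polymerase II (Pol II), are active in nearly all cells, and many are known targets of the transcription factors NRF1, GABPA (an ETS factor) and YY1.

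The 4 libraries are TT-seq, in which RNA made during 20 min of labeling with 4-thiouridine (4-SU) is fragmented, purified and sequenced. The cells were HEK293, an established human embryonic kidney line, of the genotype RPB1 degron: RPB1, the largest subunit of Pol II, carries a tag through which auxin triggers its destruction. Cells were transiently transfected with RPB1 that has either the 52X WT C-terminal domain (CTD) or a 52X CTD with T4A, an alanine in place of threonine at position 4, in every repeat. All 4 libraries, 52X WT replicates 1 and 2 and 52X T4A replicates 1 and 2, received auxin 48 h after transfection for a further 48 h, so both groups lack the endogenous protein only as far as the degron removed it, and no library without auxin or without a plasmid was analysed here. The comparison asks how T4A changes RNA synthesis of a gene relative to the other genes. The labels do not say that replicates came from separate cultures, so p-values measure only the spread between these libraries, which may be technical.

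The libraries held between 33188536 and 45605027 counts. CPM, each count relative to the total of its library, correlated on the log2 scale at 0.988 between the WT libraries and at 0.974 between the T4A libraries. POLR2A, which encodes RPB1 and is the targeted gene, had 377312 and 384353 counts in WT and 251502 and 279478 in T4A, or 9640, 8720, 7492 and 8083 CPM after scaling with TMM factors. Its log2 fold change was -0.24 (standard error 0.25, edgeR adjusted p = 0.659). Plasmid and endogenous transcripts of POLR2A cannot be told apart in these counts. Of the 8 HEK293 markers, 6 had at least 80 counts in every library, while NEFM and INA had at most 6. Blood, liver, melanocyte, endothelial and heart markers had 38 counts or fewer in any library. The endothelial marker CDH5 had 10 and 8 counts in WT and 30 and 16 in T4A. The pancreas marker INS shares 99.2% of its span with another gene, so its listed 0 is no measure.

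Not every member was measured. Reads over the listed span of a gene, introns included, appear to have been counted only where they fell on a single gene of that strand. That rule was inferred from the counts of overlapping genes, since the counting settings are not given in the sources used here. Of the 88 members, 19 share at least 90% of their span with another gene of the same strand, and none of these had more than 18 counts in any library. The same degree of overlap occurred in 21.6% of the members and in 7.53% of the 19884 protein-coding genes. They are NDUFA7, NDUFA9, NDUFA11, NDUFA13, NDUFB5, NDUFB8, NDUFC2 and NDUFV2 of complex I, SDHA and SDHD of complex II, UQCR11 of complex III, COX6A1, COX8A and COX8C of complex IV, ATP5MF, ATP5MG, ATP5MGL and ATP5PO of complex V, and the readthrough gene ATP5MF-PTCD1. Many of these overlapping genes are readthrough models with an identifier but no symbol. COX8C lies inside UNC79, ATP5MGL inside CYB5R3, and NDUFC2 inside NDUFC2-KCTD14. A listed 0 for SDHA, the flavoprotein subunit of succinate dehydrogenase, or for NDUFV2, an iron-sulfur subunit of complex I, is therefore no measure of its transcription.

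**Figure D1:**
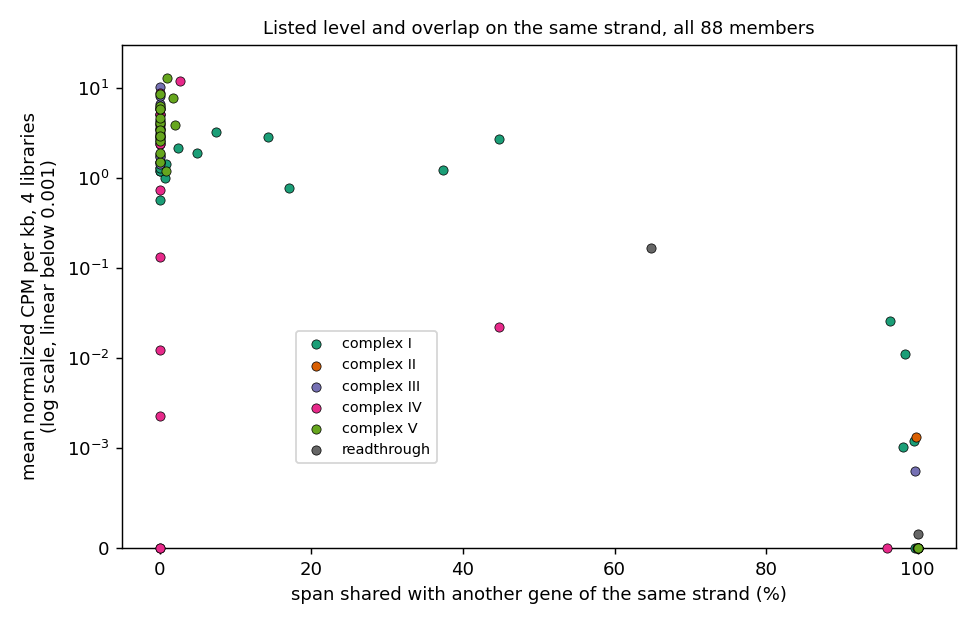
Mean level of each of the 88 members over the 4 libraries (normalized CPM per kb, log scale, linear below 0.001) against the share of its span that lies in another gene of the same strand (%), coloured by complex. The 19 members at 90% or more lie at or near 0, and the members at 0 without overlap are COX6A2 and COX7A1.

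Smaller overlaps left the gene measurable but lowered its listed level. The share was 64.8% for NDUFC2-KCTD14, 44.7% for NDUFS3, 37.4% for NDUFC1, 17.1% for NDUFB2 and 14.3% for NDUFV1. NDUFS3, a core subunit of complex I, had a WT mean level of 2.71 normalized CPM per kb of its whole span and 4.89 per kb of the part that it does not share. In all, 66 members passed the filter on low counts and were tested, 22 were not, and 14 were at 0 in every library.

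Levels are given as CPM, scaled with TMM factors, per kb of listed span, so that they reflect labeled RNA of exons and introns together. The 66 tested members spanned 1.9 to 174 kb, with a median of 12.3 kb. Their WT mean levels had a median of 2.77 normalized CPM per kb. The SD of the 2 WT libraries was 5.08% of the mean at the median member. Members differed from each other in level by far more than the WT libraries did.

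In complex I, NDUFS6, an accessory subunit of the arm that takes up NADH, was highest at 6.03 ± 0.179 normalized CPM per kb in WT (SD, n = 2) and 5.50 ± 0.207 in T4A. NDUFB11, of the membrane arm, followed at 4.76 ± 0.315 in WT and 5.26 ± 0.265 in T4A. The lowest listed levels were those of NDUFA12 at 0.574 ± 0.0145 in WT and NDUFA13 at 0.0249 ± 0.00812. NDUFA13 shares 96.3% of its span, so its listed level is no measure. Per kb of the part that it does not share it was at 0.676 in WT, from 10 and 18 counts. In complex II, SDHB, the iron-sulfur subunit, was at 3.41 ± 0.206 and SDHC, a membrane anchor, at 1.97 ± 0.0981 in WT, and both other subunits were unmeasured.

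Complex III had the highest median of the complexes, 5.12 normalized CPM per kb over 8 members in WT, against 2.35 over 29 of complex I, 2.69 over 2 of complex II, 3.45 over 12 of complex IV and 4.00 over 14 of complex V. This order held per kb of listed span. Per exonic kb, the same counts, introns included, were divided by exonic length alone, which raises genes with long introns. On that scale the medians were 50 for complex II, 15.5 for complex IV, 14.9 for complex III, 11.7 for complex V and 8.43 for complex I. Per kb of listed span UQCRFS1, the Rieske iron-sulfur protein, was highest of complex III at 9.43 ± 0.119 in WT (SD, n = 2), then UQCRQ at 8.46 ± 0.365. UQCRC1, a core protein, was lowest at 1.49 ± 0.0117, followed by UQCRHL, an intronless copy of UQCRH, at 1.64 ± 0.143. Since ambiguous alignments were dropped, the levels of UQCRH and UQCRHL are uncertain. UQCRFS1 and UQCRQ did not overlap each other in WT, and neither did UQCRC1 and UQCRHL.

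In complex V, ATP5F1B, the catalytic beta subunit, had the highest mean per kb of span of all members, 12.4 ± 0.483 normalized CPM per kb in WT and 13.1 ± 0.138 in T4A. In WT its libraries, at 12.8 and 12.1, overlapped those of COX7C of complex IV, whose mean was 12.2 ± 0.434. Per exonic kb, with intronic reads still counted, ATP5F1B was at 43.3 in WT, and NDUFS4 at 131 and NDUFS6 at 99.5 were higher. NDUFS4 spans 123 kb and was at 1.25 per kb of span in WT. Within complex V and per kb of span, ATP5F1E, the epsilon subunit, followed ATP5F1B at 8.22 ± 0.307 in WT. The lowest were ATP5MC2 at 1.30 ± 0.0544 and ATP5F1D, the delta subunit, at 1.90 ± 0.0822. ATP5MC1, ATP5MC2 and ATP5MC3 encode the same mature c subunit of the rotor ring with different import sequences. In WT, ATP5MC3 was at 7.73 and 7.72 normalized CPM per kb, ATP5MC1 at 6.11 and 5.90, and ATP5MC2 at 1.33 and 1.26, with no overlap among the 3 genes on this scale. ATP5MC3 was at 7.68 and 7.74 in T4A, ATP5MC1 at 7.09 and 5.80, and ATP5MC2 at 1.05 and 1.06, in the same order. The order rests on the listed spans, of which that of ATP5MC2 is 44.7 kb. Per exonic kb, with intronic reads still counted, ATP5MC2 was instead highest, with WT means of 14.8, 10.9 for ATP5MC3 and 7.13 for ATP5MC1. ATP5MC3 was above ATP5MC1 on both scales.

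**Figure D2:**
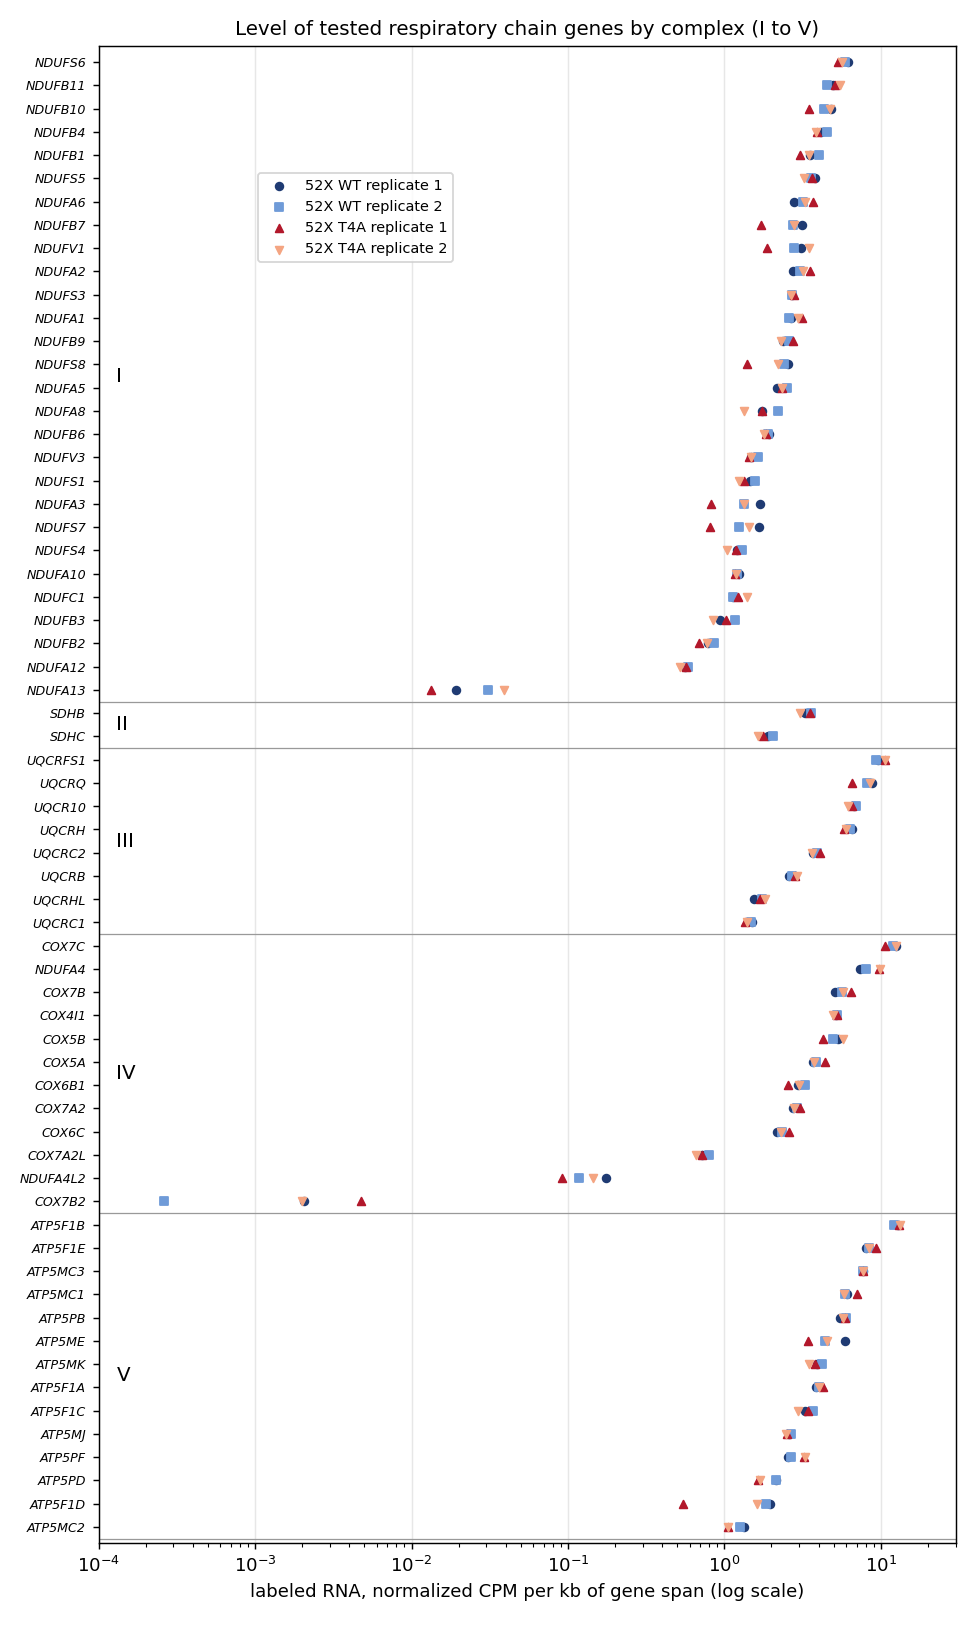
Labeled RNA of 64 tested members of complexes I to V, in normalized CPM per kb of gene span (log scale), with 1 point for each library and genes ordered by WT mean within each complex. ATP5F1B has the highest WT mean at 12.4, with libraries that overlap those of COX7C. COX7B2, NDUFA4L2 and NDUFA13 lie far below the other members, but NDUFA13 shares 96.3% of its span, so its point is no measure.

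Complex IV has paired isoforms, of which the more widely expressed was the higher wherever both could be measured. COX7C was highest at 12.2 ± 0.434 normalized CPM per kb in WT, then NDUFA4 at 7.67 ± 0.456. COX4I1, the common form of subunit 4, had 1699 and 1945 counts in WT and 1492 and 1439 in T4A, while COX4I2, a form known from lung, had between 2 and 5. COX6B1 had between 899 and 1508 counts and COX6B2, a testis form that shares 44.7% of its span, between 2 and 8. COX7A2 had between 1221 and 1628 counts. COX7A1, the heart and muscle form, and COX6A2, the muscle form of subunit 6A, were at 0 in all 4 libraries. A count of 0 allows up to 3 counts, or 0.0445 to 0.0585 normalized CPM per kb for COX7A1 and 0.108 to 0.142 for COX6A2, for counting error only. COX7A2L, a factor of supercomplexes, was at 0.757 ± 0.0584 in WT.

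COX7B had between 1576 and 1974 counts, and COX7B2, a testis form that spans 174 kb, had 14 and 2 counts in WT and 28 and 12 in T4A. COX7B2 and the hypoxia-induced NDUFA4L2, with 40 and 30 counts in WT and 18 and 29 in T4A, were the lowest tested members of complex IV. COX6A1 and COX8A, the common forms of subunits 6A and 8, share 95.9% and 100% of their spans with other genes and could not be set against COX6A2 and COX8C.

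No member passed the test for T4A against WT. With edgeR's quasi-likelihood test and Benjamini-Hochberg adjustment over all 23321 tested genes, an adjusted p-value below 0.05 with a fold change above 1.5 was reached by 0 of 66 members and by 1 gene in all (0.00429%). DESeq2 gave 0 members at that threshold, a count that says little. ATP5F1D and COX7B2, the only members with an edgeR fold above 1.5, received no adjusted p from DESeq2. At an unadjusted p below 0.05, 2 members were higher in T4A (3.03%) against 7.45% of all tested genes, and 4 were lower (6.06%) against 8.02%. The median log2 fold change (T4A over WT) of the members was -0.07, beside -0.001 for all tested genes and -0.04 for the protein-coding genes. Counts were scaled within each library, so a change in synthesis shared by all genes would not appear in these fold changes. For a single gene, less RNA per cell and fewer cells that make it cannot be told apart in bulk libraries.

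Both T4A libraries lay above both WT libraries for 12 members (18.2%, against 24.8% of all tested genes) and below them for 21 (31.8%, against 24.7%). That split depended on the scaling: with library size alone in place of TMM factors it was 22 above and 12 below. The matching shares of all tested genes are not given for that scaling, in which their median log2 fold change was 0.050. With TMM factors, the shares among the 15329 tested protein-coding genes were 21.3% above and 29.2% below, close to those of the members. Complex I had 12 of 29 members below and 5 above, complex III had 3 of 8 below and 2 above, and complex V had 5 of 14 below and 3 above. Complex IV had 0 of 12 below and 2 above. The median log2 fold changes were -0.13 for complexes I and II, -0.04 for complexes III and V and 0.01 for complex IV, and these medians were not tested against each other.

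**Figure D3:**
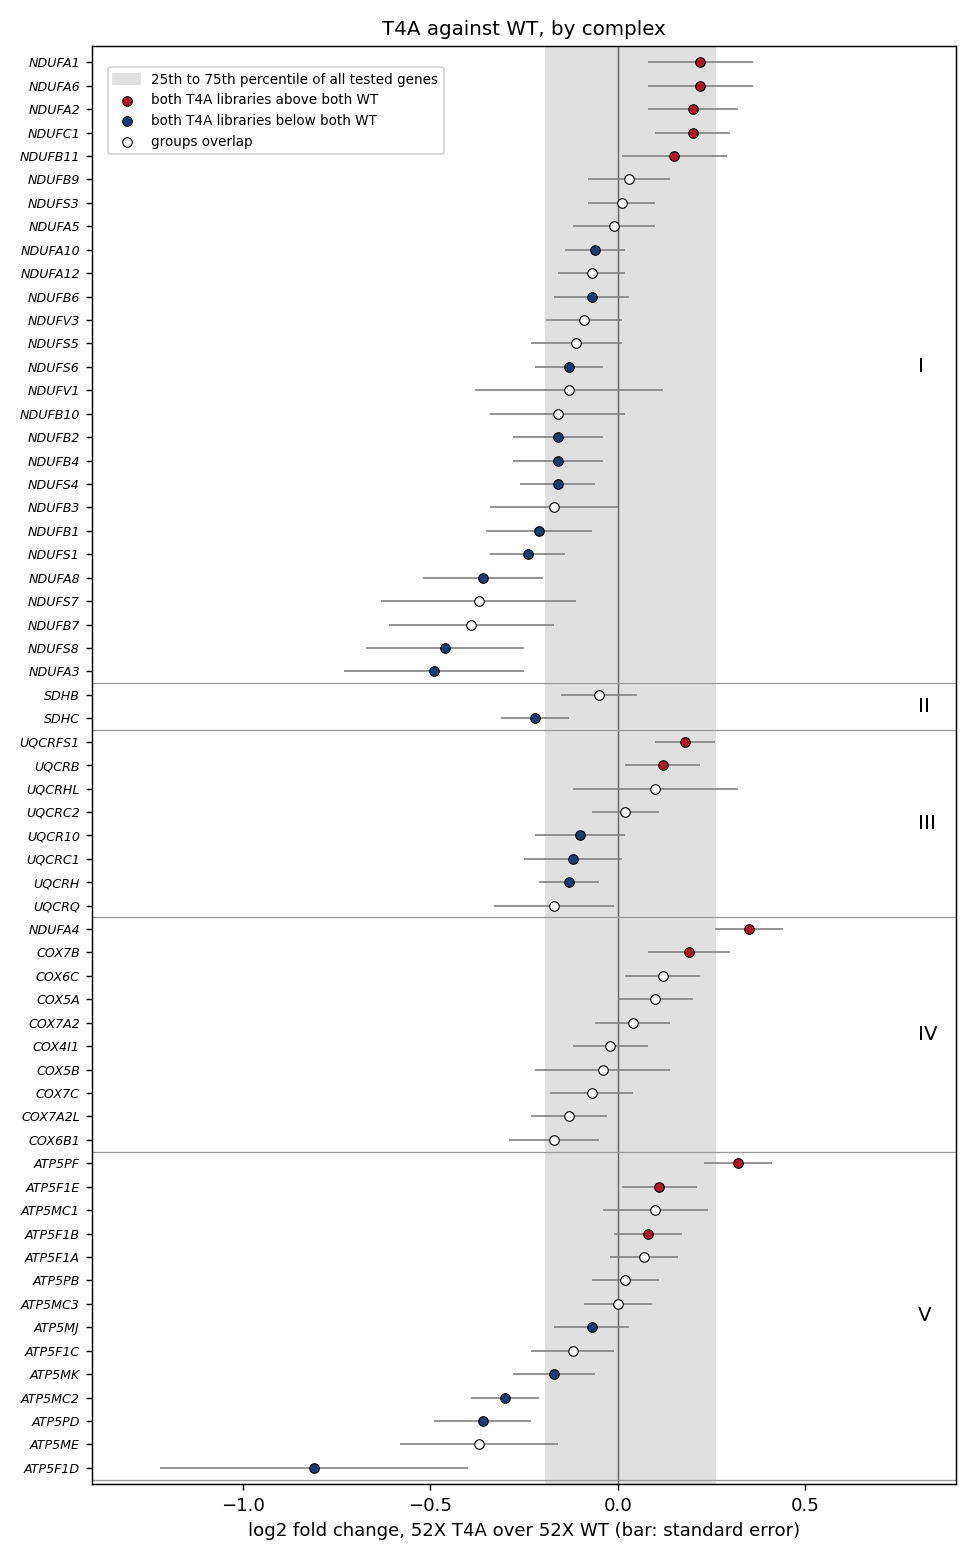
Log2 fold change of T4A over WT with its standard error for 61 members of complexes I to V that had a mean count of at least 50, grouped by complex. Most points lie inside the grey band between the 25th (-0.19) and 75th (0.26) percentiles of all tested genes, NDUFA4 and ATP5PF lie above it, and ATP5F1D lies lowest at -0.81.

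NDUFA4 (chr7:10931943-10940153, minus strand, GRCh38) had the lowest p-value of the members. It was at 60.3 and 65.6 normalized CPM in WT and at 79.9 and 80.7 in T4A, so that both T4A libraries were higher. The log2 fold change was 0.35 (standard error 0.09, unadjusted p = 0.00401, edgeR adjusted p = 0.208, DESeq2 adjusted p = 0.017). ATP5PF (chr21:25716503-25735673, minus strand), coupling factor 6 in the stalk of the ATP synthase, was at 48.7 and 51.3 in WT and at 61.8 and 62.8 in T4A. Its log2 fold change was 0.32 (standard error 0.09, edgeR adjusted p = 0.227, DESeq2 adjusted p = 0.0406). By DESeq2 both genes passed on the p-value and missed the fold of 1.5.

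The other members that were higher in both T4A libraries had smaller differences. NDUFA1, NDUFA2, NDUFA6 and NDUFC1, accessory subunits of complex I, had log2 fold changes of 0.22, 0.20, 0.22 and 0.20, with edgeR adjusted p from 0.387 to 0.463. UQCRFS1 was at 74.6 and 73.2 normalized CPM in WT and 83.7 and 83.4 in T4A, a log2 fold change of 0.18 (standard error 0.08, edgeR adjusted p = 0.351). COX7B was at 40.3 and 44.8 in WT and 51.2 and 45.6 in T4A, a log2 fold change of 0.19 (edgeR adjusted p = 0.428).

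Among members that were lower, ATP5MC2 (chr12:53632726-53677408, minus strand) was at 59.6 and 56.2 normalized CPM in WT and at 47.1 and 47.2 in T4A. The log2 fold change was -0.30 (standard error 0.09, unadjusted p = 0.0118, edgeR adjusted p = 0.244). ATP5PD (chr17:75038863-75046985, minus strand), subunit d of the peripheral stalk, was at 17.5 and 17.3 in WT and at 13.3 and 13.8 in T4A, with a log2 fold change of -0.36 (standard error 0.13, edgeR adjusted p = 0.270). For both genes the T4A libraries were close to each other and below both WT libraries. ATP5MC2 was lower than in WT while ATP5MC1 and ATP5MC3, the other c subunit genes, overlapped WT.

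SDHC was at 93.0 and 99.8 normalized CPM in WT and 85.7 and 80.2 in T4A, a log2 fold change of -0.22 (standard error 0.09, edgeR adjusted p = 0.308). SDHB was at 115 and 126 in WT and 125 and 108 in T4A, so its groups overlapped. NDUFS1, the largest iron-sulfur subunit of complex I, was at 65.2 and 70.8 in WT and 59.8 and 55.6 in T4A, a log2 fold change of -0.24 (standard error 0.10, edgeR adjusted p = 0.302). NDUFA8 was at 27.2 and 34.8 in WT and 27.1 and 21.1 in T4A, with T4A replicate 1 next to WT replicate 1. Its log2 fold change was -0.36 (standard error 0.16, edgeR adjusted p = 0.336). Leaving out WT replicate 2 gave -0.20 and leaving out T4A replicate 2 gave -0.21. The value was -0.54 when WT replicate 1 was dropped, and -0.55 (edgeR adjusted p = 0.0363) when T4A replicate 1 was.

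The largest negative values came from GC-rich genes and mostly from T4A replicate 1. ATP5F1D (chr19:1241746-1244825, plus strand), with a GC content of 63.0%, had 236 and 250 counts in WT, 56 in T4A replicate 1 and 173 in T4A replicate 2. In normalized CPM these were 6.03, 5.67, 1.67 and 5.00. The log2 fold change was -0.81 (standard error 0.41, edgeR adjusted p = 0.379), and without T4A replicate 1 it was -0.22. Without T4A replicate 2 it was -1.82 (edgeR adjusted p = 8.76e-10), and with the replicate number as a block it was -0.97 (edgeR adjusted p = 0.0236). NDUFA3, just under 55% GC, was at 11.1 and 8.69 normalized CPM in WT and at 5.39 and 8.68 in T4A, a log2 fold change of -0.49 (standard error 0.24, edgeR adjusted p = 0.370), with T4A replicate 2 just below WT replicate 2. NDUFS8, a core subunit with iron-sulfur clusters, was at 15.4 and 14.4 in WT and at 8.43 and 13.2 in T4A, a log2 fold change of -0.46 (standard error 0.21, edgeR adjusted p = 0.341). Without T4A replicate 1 the log2 fold changes of NDUFA3 and NDUFS8 were -0.18 and -0.16.

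NDUFS7, NDUFB7, NDUFV1 and ATP5ME had the same shape. NDUFS7 was at 20.1 and 14.9 normalized CPM in WT and 9.71 and 17.4 in T4A, and NDUFV1, which binds NADH, at 21.2 and 19.3 in WT and 12.9 and 24.0 in T4A. NDUFB7 was at 18.9 and 16.4 in WT and 10.3 and 16.7 in T4A. ATP5ME was at 11.1 and 8.35 in WT and 6.46 and 8.62 in T4A. In each of these 4 genes T4A replicate 1 was below both WT libraries and T4A replicate 2 was not.

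All 8 tested members with a GC content of at least 55%, a value chosen after the data were seen, were lower in T4A replicate 1 than in T4A replicate 2, as were 2796 of the 3166 tested genes of that GC content. Relative to the WT mean, their median log2 ratio was -0.72 in T4A replicate 1, while T4A replicate 2 gave -0.05. For the 58 other tested members the medians were -0.01 and -0.06. Those 3166 genes showed medians of -0.56 and 0.08 over the whole table, so the difference between the T4A libraries was not particular to the members. Across the 66 members, which share their libraries, the log2 ratio to the WT mean correlated with GC content at Pearson r = -0.67 (Spearman -0.51) in T4A replicate 1 and at -0.05 (Spearman -0.03) in T4A replicate 2, given as a description. In WT replicate 1 the same correlation was 0.21 (Spearman 0.47) and in WT replicate 2 it was -0.02 (Spearman -0.47). The WT mean is made of these 2 libraries, so their opposite signs by rank are built in. By rank, the ratio of WT replicate 1 to WT replicate 2 rose with GC content among the members. With a trend on GC content removed from each library, ATP5F1D moved from -0.81 to -0.48 on the log2 scale, NDUFS8 from -0.46 to -0.28 and NDUFS7 from -0.37 to -0.11. ATP5ME moved from -0.37 to -0.19, NDUFB7 from -0.39 to -0.22, NDUFV1 from -0.13 to -0.03 and NDUFA3 from -0.49 to -0.41. All 7 stayed below 0, with edgeR adjusted p from 0.14 to 0.918.

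**Figure D4:**
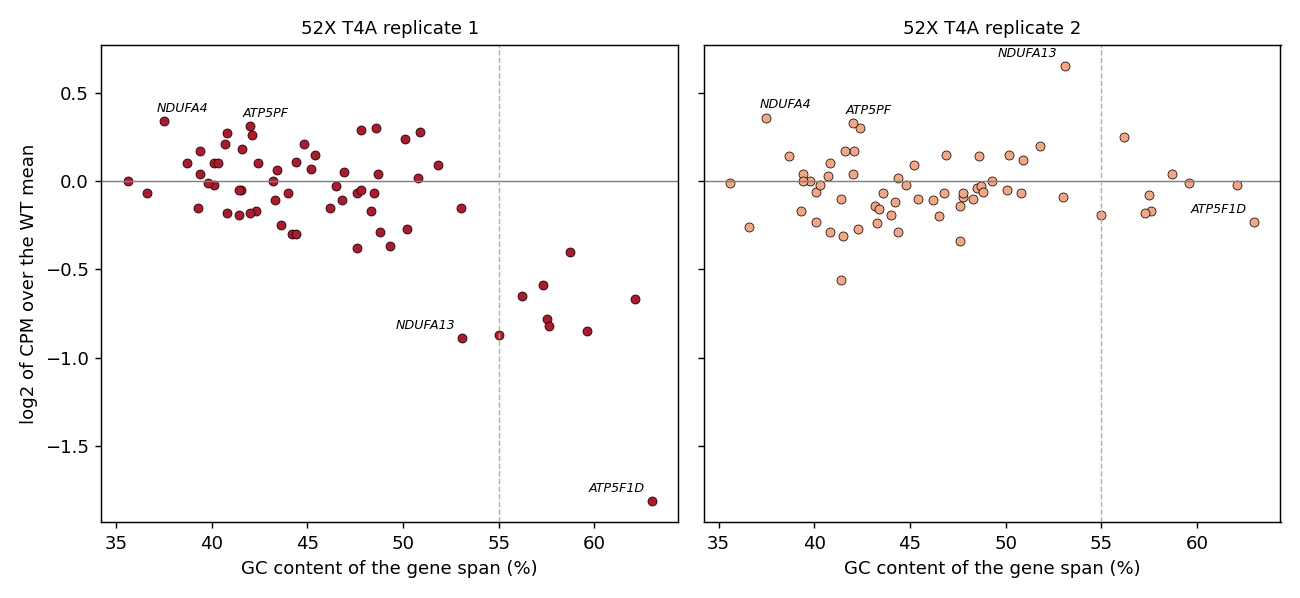
Log2 ratio of normalized CPM to the WT mean for 64 tested members (COX7B2, with 2 to 28 counts, was left out) against the GC content of the gene span (%), in T4A replicate 1 (left) and T4A replicate 2 (right), with a dashed line at 55%. Members beyond the line lie below 0 in T4A replicate 1, with ATP5F1D at -1.81, and between -0.23 and 0.25 in T4A replicate 2.

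Promoter windows of 300 bases, 250 before to 50 after the start of the RefSeq gene (GRCh38.p14), were given for 71 of the 88 members. None was used here for the other members, ATP5F1B, ATP5F1D and SDHC among them. Letters of known binding motifs were searched on both strands: GCGCATG and the shorter TGCGCA for NRF1, which can overlap each other, CCGGAAG for ETS factors and AAGATGG for YY1. GCGCATG was in 21.1% of member windows and in 4.68% of 27305 windows in all, and TGCGCA in 28.2% and 8.42%. CCGGAAG was in 28.2% and 10.7%, and AAGATGG in 23.9% and 6.06%. At least 1 of the 4 was in 42 member windows, or 59.2%, against 23.7%. Among protein-coding genes alone the share with at least 1 was 29.0%.

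**Figure D5:**
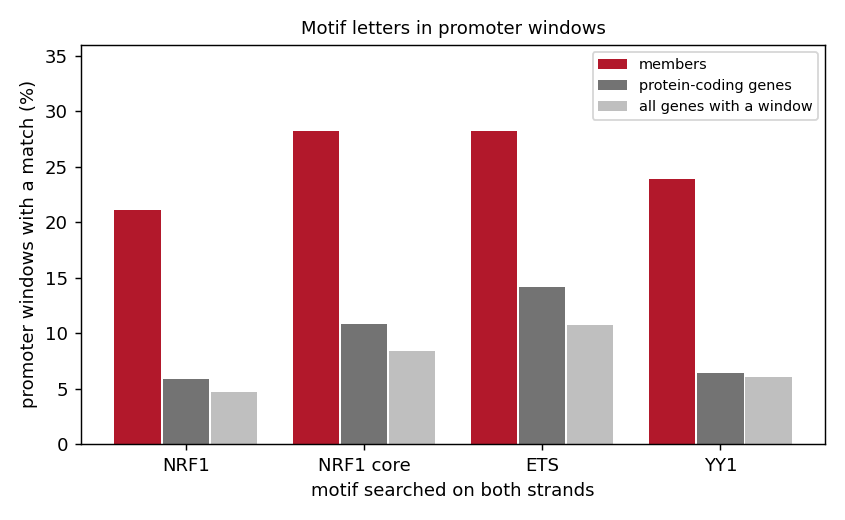
Share of 300-base promoter windows with at least 1 match to each motif, on either strand, for the 71 members, 15843 protein-coding genes and 27305 genes in all. Each motif is more frequent in the windows of the members, from 21.1% to 28.2%, than in either other set, from 4.68% to 14.2%.

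The windows are shown for the 4 members with the lowest p-values in the comparison, and for SDHB, whose window holds every motif searched. Capitals mark the motif matches, in either direction. The RefSeq start can lie inside the span listed in the count table, as it does for ATP5MC2 and ATP5PF.
NDUFA4 promoter, chr7:10940104-10940403, minus strand: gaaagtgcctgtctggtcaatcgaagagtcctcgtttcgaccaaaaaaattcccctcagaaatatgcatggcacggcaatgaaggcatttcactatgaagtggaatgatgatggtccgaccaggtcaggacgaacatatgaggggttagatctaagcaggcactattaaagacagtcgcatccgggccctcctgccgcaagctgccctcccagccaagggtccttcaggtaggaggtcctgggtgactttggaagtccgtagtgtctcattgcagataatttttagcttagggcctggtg
ATP5PF promoter, chr21:25735005-25735304, minus strand: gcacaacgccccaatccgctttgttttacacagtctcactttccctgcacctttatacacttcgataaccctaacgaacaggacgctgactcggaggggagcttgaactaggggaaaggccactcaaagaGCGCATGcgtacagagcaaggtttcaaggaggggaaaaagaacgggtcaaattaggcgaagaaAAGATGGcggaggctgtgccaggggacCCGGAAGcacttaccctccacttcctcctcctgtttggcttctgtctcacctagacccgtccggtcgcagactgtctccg
ATP5MC2 promoter, chr12:53676034-53676333, minus strand: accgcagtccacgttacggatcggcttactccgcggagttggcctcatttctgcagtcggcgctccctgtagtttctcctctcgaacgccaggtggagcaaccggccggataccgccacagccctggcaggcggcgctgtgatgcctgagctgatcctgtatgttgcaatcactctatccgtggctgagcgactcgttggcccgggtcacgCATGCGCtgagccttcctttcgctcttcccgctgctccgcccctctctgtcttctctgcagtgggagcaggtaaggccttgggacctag
ATP5PD promoter, chr17:75046920-75047219, minus strand: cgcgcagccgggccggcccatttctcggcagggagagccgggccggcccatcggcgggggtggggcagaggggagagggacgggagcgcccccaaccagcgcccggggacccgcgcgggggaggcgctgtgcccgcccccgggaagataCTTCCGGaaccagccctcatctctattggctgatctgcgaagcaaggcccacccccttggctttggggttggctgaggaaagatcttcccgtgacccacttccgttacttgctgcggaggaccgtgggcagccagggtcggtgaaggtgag
SDHB promoter, chr1:17053983-17054282, minus strand: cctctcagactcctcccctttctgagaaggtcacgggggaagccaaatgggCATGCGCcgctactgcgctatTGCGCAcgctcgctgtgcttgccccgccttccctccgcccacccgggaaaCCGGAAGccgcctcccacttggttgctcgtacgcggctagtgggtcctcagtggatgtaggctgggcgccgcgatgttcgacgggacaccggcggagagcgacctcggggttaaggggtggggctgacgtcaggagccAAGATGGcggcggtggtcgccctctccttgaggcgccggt
No motif letters were found in the window of NDUFA4, while that of ATP5PF holds the longer NRF1 motif, the YY1 motif and the ETS motif. The window of ATP5MC2 holds an NRF1 match and that of ATP5PD an ETS match. Members higher in T4A and members lower in T4A had windows with such matches. The 12 tested members with GCGCATG had a median WT level of 3.19 normalized CPM per kb and a median log2 fold change of -0.13, and the 44 without it 2.87 and -0.07. For CCGGAAG the medians were 3.12 and -0.13 with it (15 members) and 2.84 and -0.07 without it (41 members). AAGATGG went the other way, with 2.61 and -0.07 with it (13 members) and 2.93 and -0.09 without it (43 members). TGCGCA gave 3.41 and -0.12 with it and 2.84 and -0.07 without it.

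Many members face another gene. Of the 88, 20 (22.7%) have a protein-coding gene that runs the other way from a start within 1000 bases upstream, against 8.46% of protein-coding genes. NDUFS6 and MRPL36, a mitochondrial ribosomal protein gene, start 41 bases apart and were at 6.03 and 6.44 normalized CPM per kb in WT, with log2 fold changes of -0.13 and -0.21. NDUFS1 and EEF1B2, a translation elongation factor gene, start 76 bases apart and were at 1.52 and 13.1. SDHD, unmeasured because of an overlap, starts 26 bases from TIMM8B, which was at 7.94.

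Other genes of the same pathway were taken as fixed lists. No gene of these lists passed the threshold by edgeR. Of the 4 remaining subunits and carriers, CYCS, which encodes the electron carrier cytochrome c, was at 129 and 134 normalized CPM in WT and 181 and 168 in T4A. Its log2 fold change was 0.40 (standard error 0.09, unadjusted p = 0.00163, edgeR adjusted p = 0.183). At about the same fold its adjusted p was 0.000459 by DESeq2 and 0.00165 by edgeR with the GC trend removed. In the other edgeR settings with all 4 libraries it was from 0.0858 to 0.175. Leaving out 1 library gave CYCS log2 fold changes from 0.36 to 0.44. NDUFAB1, CYC1 and ATP5IF1 had log2 fold changes of -0.12, -0.14 and -0.07. Of 49 assembly factors, 43 were tested, and the median log2 fold change was -0.07. In both T4A libraries 8 lay above WT (18.6%, against 24.8% of all tested genes) and 15 below (34.9%, against 24.7%). UQCC2, an assembly factor of complex III, was at 43.6 and 43.8 in WT and 35.5 and 34.0 in T4A, a log2 fold change of -0.33 (standard error 0.10, edgeR adjusted p = 0.231).

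Of 11 regulators, all were tested, and the median log2 fold change was 0.03. In both T4A libraries 4 lay above WT (36.4%, against 24.8% of all tested genes) and 2 below (18.2%, against 24.7%). PPARGC1B, a coactivator of mitochondrial genes, was at 167 and 145 normalized CPM in WT and 121 and 115 in T4A, a log2 fold change of -0.40 (standard error 0.10, edgeR adjusted p = 0.201). Its adjusted p was 0.00412 by DESeq2 and 0.00207 by edgeR with the GC trend removed. In the other edgeR settings with all 4 libraries it was from 0.0664 to 0.197. Leaving out 1 library gave PPARGC1B log2 fold changes from -0.52 to -0.31. NRF1 was at 202 and 208 in WT and 192 and 172 in T4A, and GABPA at 57.9 and 69.4 in WT and 67.4 and 62.8 in T4A. The lowest log2 fold change of the 11 was that of POLRMT, -0.71 (standard error 0.39, edgeR adjusted p = 0.402). POLRMT was at 12.4 and 9.71 in WT and 3.57 and 9.89 in T4A, so only T4A replicate 1 was below both WT libraries.

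The 13 subunits encoded in mitochondrial DNA are made by another polymerase, POLRMT. None was above WT in both T4A libraries and 9 (69.2%) were below in both, against 24.8% and 24.7% of all tested genes. A fold change below 0 was found for 12, and the median log2 fold change was -0.23. These subunits fell more in T4A replicate 1 (median log2 ratio to the WT mean -0.37) than in T4A replicate 2 (-0.07). Their summed level was 5998 and 6337 normalized CPM in WT and 4914 and 5746 in T4A, and the lowest was T4A replicate 1. MT-ND6, which lies on the other strand of the mitochondrial genome from the rest, was the exception, at 464 and 427 in WT and 414 and 566 in T4A. The nuclear members summed to 2876 and 2981 in WT and to 2906 and 2818 in T4A, so their groups overlapped. No interaction between nuclear and mitochondrial subunits was tested.

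The mitochondrial ribosomal protein genes, of which 69 of 78 were tested, had a median log2 fold change of -0.09. In both T4A libraries 9 (13%) were above WT and 21 (30.4%) below, against 24.8% and 24.7% of all tested genes. The cytosolic ribosomal protein genes, of which 93 of 101 were tested, had a median of 0.09 with 52 (55.9%) above and 10 (10.8%) below. At an unadjusted p below 0.05 by edgeR, 18 of these (19.4%) were higher and 0 lower, against 7.45% and 8.02% of all tested genes. The respiratory chain members had 2 (3.03%) higher and 4 (6.06%) lower. These differences between gene sets were not tested.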

How the data were processed

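The authors deposited raw counts per gene from featureCounts over uniquely aligned reads, with gene positions and length, per the file headers. The deposited length, a column of other kind, equals the listed span, so introns were counted. Per the labels, libraries were strand-specific. The submitters' processing notes name cutadapt 4.6, STAR 2.7.11b, Picard, deepTools 3.5.6 and GRCh38. The featureCounts version and settings are not given in the sources used here. All 4 count columns were matched to samples (0 unmatched).

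Symbols and gene types came from a GENCODE annotation by stable identifier (58700 of 60708 genes). Of 19052 protein-coding genes, 99.974% overlapped their GRCh38 position. GC content was read from GRCh37 spans. The count model was edgeR 4.0.16 in R 4.3.3 with TMM factors, its default filter, no covariates, and quasi-likelihood tests with Benjamini-Hochberg adjustment. Standard errors came from the F statistic. The fit was checked on simulated data. DESeq2 1.42.0, other scalings and filters, the replicate number as a block, removal of a trend on length or GC content, and leaving out each library were the alternatives. Trends were lowess fits with a span of 0.3. GC content and the unshared length were added after the data were seen.

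Named members were the 2 highest and 2 lowest by level in each complex, all of complex II, the isoform sets, the 6 largest rises and 6 largest falls among members with a mean count of at least 50 whose groups did not overlap, and members that overlap other genes or are at 0. GC-rich members, NDUFS1, COX7B and the genes of the other lists were chosen after their values were seen. The members and lists were chosen with earlier results of these data known. Total counts were 39249066 and 45605027 for WT and 33853507 and 33188536 for T4A. Most members with at least 50 counts had a standard error near 0.11 (log2), which limits detection of smaller differences. Counts of PCR reads without molecular identifiers are not independent molecules, so floors cover counting error only. 1 member is counted in totals and is otherwise not reported here.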

Additional observations from a re-analysis of the deposited data

How the results depend on the processing

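The count of members past the threshold was 0 with library size alone, RLE factors, protein-coding genes only, no filter, a minimum of 10 counts in each library, either trend removed, no fold threshold and DESeq2. By DESeq2, ATP5F1D and COX7B2, the only members with an edgeR fold above 1.5, had no adjusted p. With a replicate block the count of members past the threshold was 1 (ATP5F1D), with 433 genes in all. The replicate numbers were not treated as pairs, since same-numbered deviations correlated at 0.0176. Leaving out 1 library gave 0 to 8 members and 0 to 2500 genes. The 8, against 2500 genes in all, came without T4A replicate 2, when T4A replicate 1 stands alone and is assumed to vary like WT: NDUFV1, NDUFS7, NDUFS8, NDUFB7, NDUFA3, ATP5F1D and ATP5ME lower and COX7B2 higher. All genes past the threshold numbered 65 with no filter, 2 with the length trend removed, 330 with the GC trend removed and 99 by DESeq2, against 1. The cause was not tested.

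The members' median log2 fold change was -0.02 with library size alone (all genes 0.050) and -0.0945 with no filter (all genes 0.056). With protein-coding genes only it was -0.0371 (all genes of that fit -0.010). Without 1 library it was -0.0935 to -0.053 (all genes -0.010 to 0.018). The median WT level was 11.7 normalized CPM per exonic kb and 2.87 per unshared kb, against 2.77. SDHB reversed to 9e-05 with library size alone. Without 1 library SDHB ranged from -0.16 to 0.04, NDUFS7 from -0.86 to 0.00073 and NDUFV1 from -0.66 to 0.26, positive without T4A replicate 2 for SDHB and without T4A replicate 1 for NDUFS7 and NDUFV1. Removing the GC trend moved the edgeR adjusted p of NDUFA4 to 0.00968, of ATP5PF to 0.0293, of ATP5MC2 to 0.0198 and of ATP5PD to 0.049. Those of SDHC, NDUFS1 and UQCC2 moved to 0.0296, 0.0404 and 0.0205. Each of these genes had a fold below 1.5. They come from the named genes only, and the share of all tested genes below 0.05 in that setting is not given. Without 1 library NDUFA2 ranged from 0.12 to 0.26, NDUFA6 from 0.12 to 0.30, NDUFC1 from 0.08 to 0.30 and COX7B from 0.10 to 0.25.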
